A study of Mus musculus with 8 samples.

Results

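Gjb2, Gucy1a3, Gucy1b3, Hdgfrp3, Tbc1d4, Hivep3, Trib2, Sspo and Tgm2 are 9 genes of differing function that stood far higher in regulatory T cells (Treg) of the spleen than in those of the bone marrow. They were picked by name from genes with that difference in these same libraries, so their levels and fold changes between the tissues are given as a description, with no test. The 9 symbols matched 10 of the 38215 gene rows in the deposited tables, because Hivep3 is listed under 2 gene identifiers, and 33 of the 92351 transcript rows. All 10 rows passed the filter on low counts. The study compared Treg of the bone marrow (BM-Treg, 4 libraries) with Treg of the spleen (SP-Treg, 4 libraries), sorted as FoxP3+ cells from untreated mice aged 12 weeks. The labels give the genotype of every mouse as C57Bl/6. The methods name B6.FoxP3-GFP mice, in which a green fluorescent protein follows expression of FoxP3, the transcription factor that defines Treg. BM-Treg replicates 1 to 3 came from females and were labelled batch 1, while the males, which gave BM-Treg replicate 4 and every SP-Treg replicate, were labelled batch 3, so that BM-Treg replicate 4 was the only bone marrow library of the sex and batch of the spleen libraries. The titles of some spleen samples carry a range of numbers, and whether cells of several mice were pooled is not stated in the sources used here.

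Treg restrain immune responses and are found in lymphoid organs and in other tissues, where their gene expression differs. Gucy1a3 and Gucy1b3 encode the alpha and beta subunits that join into soluble guanylate cyclase, the receptor for nitric oxide, which makes the second messenger cGMP. Gjb2 encodes a connexin, the building block of gap junction channels between cells. Tbc1d4 encodes a Rab GTPase activating protein that holds glucose transporters inside the cell until Akt phosphorylates it, and Trib2 a pseudokinase of the tribbles family, which guides ubiquitin ligases to their substrates. Hivep3 encodes a large zinc finger protein and Hdgfrp3 a relative of hepatoma-derived growth factor with a PWWP domain. Tgm2 encodes transglutaminase 2, a calcium-dependent protein crosslinking enzyme, and Sspo encodes SCO-spondin, a giant secreted protein with many thrombospondin repeats that is best known from the brain.

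The libraries held from 12427136 to 21921252 expected counts. The 9 Treg and T cell markers (Foxp3, Il2ra, Ctla4 and others) summed to between 8030 and 9670 CPM (counts scaled to the size of the library) in BM-Treg and to between 8880 and 9590 in SP-Treg. None of the 9 passed the edgeR test between the tissues, with 1 at an unadjusted p under 0.05, whereas DESeq2 called 1. Over all genes 8.75% passed the edgeR test. The lowest edgeR adjusted p of the 9 was that of Il2ra (log2 fold change, BM-Treg minus SP-Treg, -0.62, edgeR adjusted p = 0.0803). It had 736 to 939 CPM in BM-Treg and 848 to 1674 CPM in SP-Treg. Foxp3 ran the other way (0.26, edgeR adjusted p = 0.241). Markers of other cells were unevenly spread over the spleen libraries. The summed CPM of 8 B cell markers was 14.9, 156, 34.1 and 29.1 in SP-Treg replicates 1 to 4 and between 14.3 and 20.0 in BM-Treg. For 7 erythroid markers it was 1.94, 187, 453 and 291 in SP-Treg replicates 1 to 4 and between 12.6 and 32.7 in BM-Treg. SP-Treg replicate 2 thus stood apart in B cell markers and SP-Treg replicate 1 in its low erythroid markers. CD8 T and NK cell markers reached 66.4 in SP-Treg and 24.5 in BM-Treg. In the edgeR test 3 markers of other cells were higher in SP-Treg, as the members were, and 0 were higher in BM-Treg. The 3 were Vcam1 of the macrophage list (log2 fold change -2.92, edgeR adjusted p = 0.00222), Cd8a (-2.99, edgeR adjusted p = 0.0293) and the B cell factor Ebf1 (-2.42, edgeR adjusted p = 0.0332). Tested were 3 markers of CD8 T and NK cells, 6 of B cells and 5 of macrophages and monocytes. Also tested were 2 of neutrophils, 5 of dendritic cells, 5 erythroid, 1 of platelets, and 5 endothelial and stromal. Over all genes tested, 5.02% were called higher in SP-Treg and 3.72% higher in BM-Treg, and nothing is read from the marker counts. Vcam1 had 1.15, 0.741, 0.700 and 0.167 CPM in BM-Treg and 7.04, 8.44, 3.51 and 2.79 CPM in SP-Treg. Of the same list, C1qa, C1qb, C1qc and Cd14 stayed at or below 0.669 CPM in all 8 libraries. Lyz2 was between 10.3 and 12.6 CPM in BM-Treg and at 3.52, 18.9, 18.6 and 12.8 CPM in SP-Treg. Cd68 reached 5.04 CPM in BM-Treg and 5.93 in SP-Treg, Csf1r 3.34 and 2.67, and Mrc1 2.57 and 0.92. Macrophage and monocyte markers summed to between 138 and 247 in BM-Treg and between 103 and 166 in SP-Treg, mostly Ccr2, and dendritic cell markers to between 60.2 and 64.9 and between 45.4 and 77.3. Neutrophil markers ranged from 1.31 to 9.94 and from 0.216 to 18.5. Endothelial and stromal markers ranged from 53.3 to 84.4 and from 45.8 to 61.9, mostly Pecam1. Platelet markers stayed at or below 2.67, with Treml1 and Gp6 at 0 in all 8 libraries. The part of these markers in the results was not tested. In bulk RNA, fewer cells that express a gene and less of its RNA per cell cannot be told apart.

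Across the 10 rows the median log2 fold change, BM-Treg minus SP-Treg, was -1.66, against -0.01 over all 13397 genes tested. A log2 fold change of -1 or lower was found in 9 of the 10 rows and in 3.1% of all genes tested. Every SP-Treg library stood above every BM-Treg library in 8 of the 10 rows and in 8.56% of all genes tested. The rule chose the members for this difference, so nothing is read from these shares. The exceptions were Gucy1b3 and the short Hivep3 row, whose tissues overlapped. Without SP-Treg replicate 2 the median was -1.68, and without SP-Treg replicate 1 it was -1.66. Within batch 3, where BM-Treg replicate 4 is the only BM-Treg library, the median was -1.95.

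**Figure D1:**
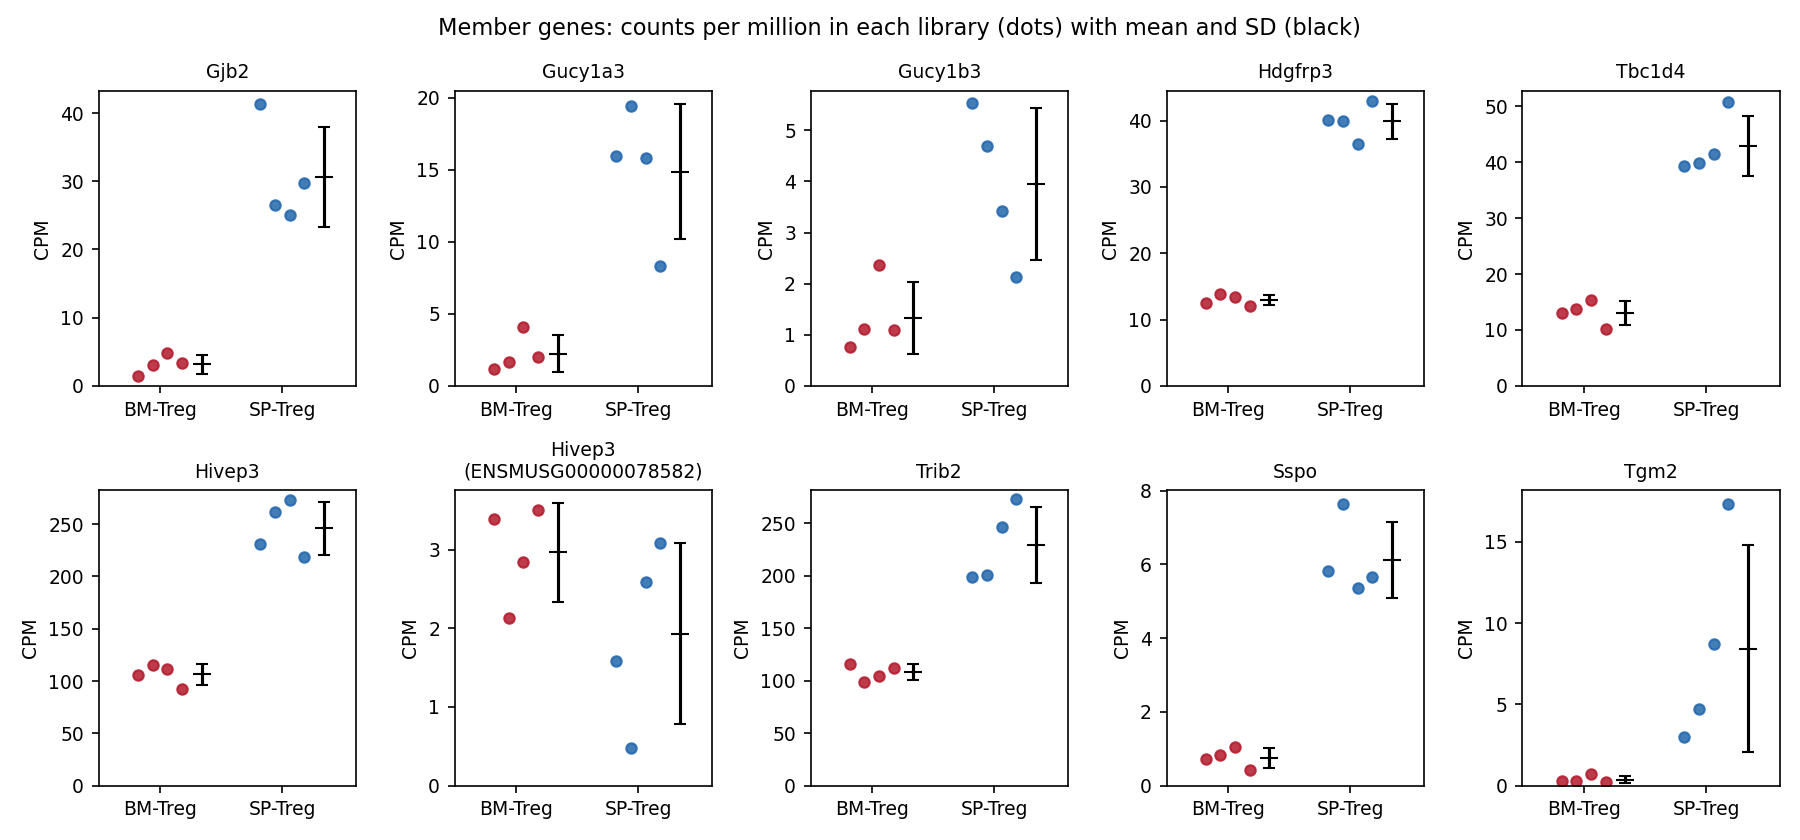
Each panel gives the CPM (linear axis from 0) of a member gene row in the 4 BM-Treg libraries (red) and the 4 SP-Treg libraries (blue), with mean and SD in black. The SP-Treg dots lie above all BM-Treg dots in 8 panels, overlap them for Gucy1b3 and for the row ENSMUSG00000078582 of Hivep3.

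Per transcript length, in FPKM, the order of the members in SP-Treg was Trib2 (54.8 ± 7.54, SD, n = 4), Hivep3 (31.0 ± 1.85), Tbc1d4 (13.6 ± 1.42), Gjb2 (13.02 ± 4.16), Hdgfrp3 (8.42 ± 0.844), Gucy1a3 (3.18 ± 1.01), Tgm2 (2.31 ± 1.74), Gucy1b3 (1.23 ± 0.529) and Sspo (0.390 ± 0.0632). In that order Tbc1d4 and Gjb2, Gucy1a3 and Tgm2, and Tgm2 and Gucy1b3 did not differ beyond their spread. In BM-Treg, Trib2 (27.9 ± 2.22 FPKM, SD, n = 4) and Hivep3 (20.2 ± 3.09) again led, followed by Tbc1d4 (4.87 ± 0.819) and Hdgfrp3 (2.90 ± 0.151). Gjb2 fell to 1.38 ± 0.600 FPKM there, below Hdgfrp3. Gucy1a3 (0.503 ± 0.298), Gucy1b3 (0.433 ± 0.237), Tgm2 (0.110 ± 0.0668) and Sspo (0.0525 ± 0.0171) closed the order in BM-Treg. There Gjb2 and Gucy1a3, the subunits of guanylate cyclase, and Tgm2 and Sspo did not differ beyond their spread, each pair taken by itself. The members thus spanned abundant and barely detected genes in both tissues.

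Both subunits of soluble guanylate cyclase were higher in the spleen, the alpha subunit by more. Gucy1a3 (ENSMUSG00000033910, chromosome 3, 82092428 to 82145877, minus strand) had 1.204, 1.67, 4.11 and 2.005 CPM in BM-Treg replicates 1 to 4 and 15.9, 19.4, 15.8 and 8.29 CPM in SP-Treg replicates 1 to 4. The tissues did not overlap, although SP-Treg replicate 4 was low and BM-Treg replicate 3 high for their groups. The mean was 2.25 ± 1.29 in BM-Treg and 14.9 ± 4.70 in SP-Treg, in CPM (SD, n = 4), a log2 fold change of -2.70 (SE 0.37), or 6.50-fold higher in SP-Treg. Gucy1b3 (ENSMUSG00000028005, chromosome 3, 82032004 to 82074711, minus strand) had 0.766, 1.11, 2.36 and 1.09 CPM in BM-Treg and 5.53, 4.70, 3.43 and 2.13 CPM in SP-Treg. Here BM-Treg replicate 3 stood above SP-Treg replicate 4. The log2 fold change of Gucy1b3 was -1.54 (SE 0.41), 2.91-fold higher in SP-Treg. In FPKM the ratio of Gucy1a3 to Gucy1b3 was 1.08, 1.03, 1.21 and 1.27 in the BM-Treg libraries and 1.99, 2.87, 3.20 and 2.69 in the SP-Treg libraries. On that scale the RNAs of the subunits were close to equal in BM-Treg, with a mean ratio of 1.15 ± 0.113. In SP-Treg the RNA of the alpha subunit exceeded that of the beta subunit, with a mean ratio of 2.69 ± 0.509. In counts, which are not divided by length, the mean ratio was 1.66 ± 0.158 in BM-Treg and 3.88 ± 0.728 in SP-Treg. These ratios follow from the levels that chose the genes, and they were given no test.

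**Figure D2:**
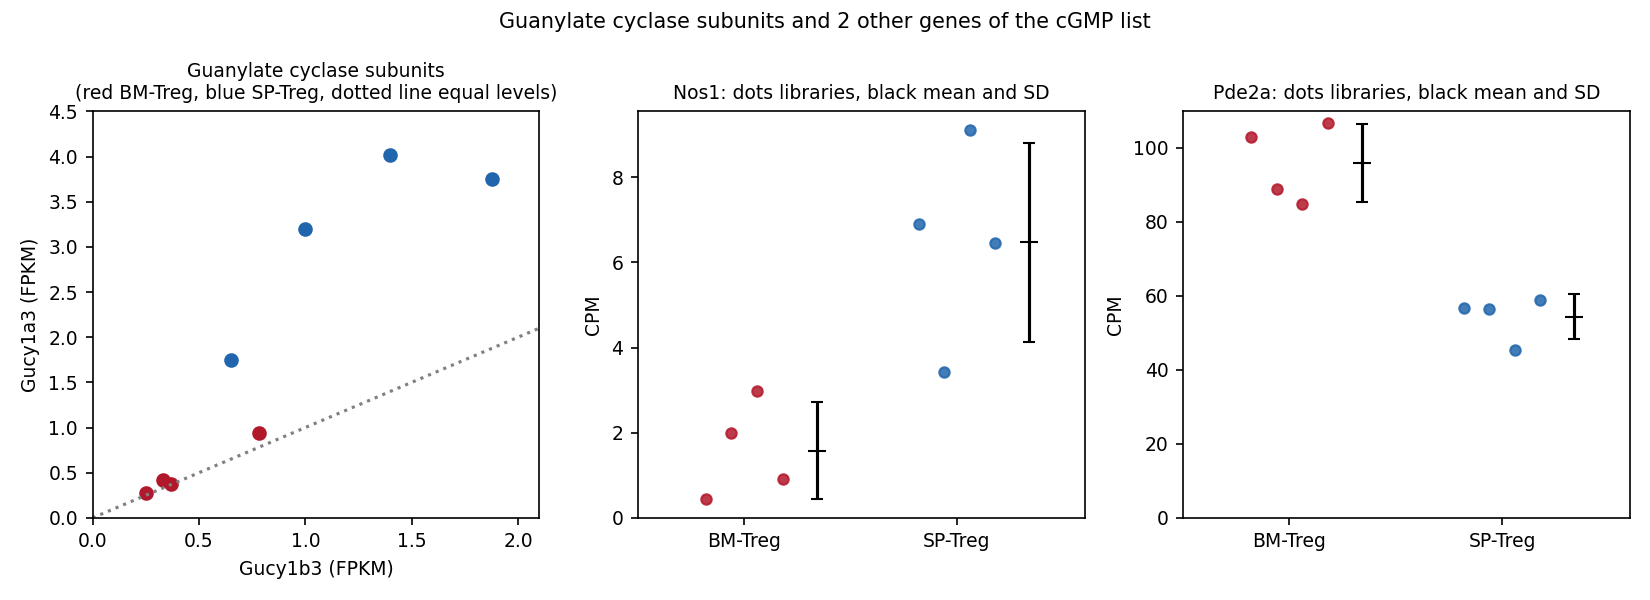
The left panel plots Gucy1a3 against Gucy1b3 (FPKM) for each library, with BM-Treg in red, SP-Treg in blue and a dotted line where both are equal, and the other panels give Nos1 and Pde2a in CPM with mean and SD. BM-Treg libraries lie near the dotted line (ratios of 1.03 to 1.27) and SP-Treg libraries above it (1.99 to 3.20), while Nos1 is higher in SP-Treg and Pde2a higher in BM-Treg.

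The genes lie side by side. Gucy1b3 is the nearest gene past the filter to Gucy1a3, 17717 bases away on the same strand. Their promoters are shown because the subunits share this region and act as a pair. The windows cover 300 bases, 250 before and 50 after the start, from RefSeq on GRCm38.p6, minus strand, 5′ to 3′, at chr3:82145601-82145900 for Gucy1a3 (the upper of its 2 listed windows) and chr3:82074662-82074961 for Gucy1b3. Capitals mark GGGCGG, the core of a GC box, or its reverse complement CCGCCC.
Gucy1a3: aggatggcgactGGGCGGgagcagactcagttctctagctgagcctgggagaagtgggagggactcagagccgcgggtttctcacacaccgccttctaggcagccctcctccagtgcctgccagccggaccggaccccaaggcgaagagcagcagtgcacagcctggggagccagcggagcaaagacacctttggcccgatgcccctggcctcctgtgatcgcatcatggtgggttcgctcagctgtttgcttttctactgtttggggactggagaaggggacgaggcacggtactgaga
Gucy1b3: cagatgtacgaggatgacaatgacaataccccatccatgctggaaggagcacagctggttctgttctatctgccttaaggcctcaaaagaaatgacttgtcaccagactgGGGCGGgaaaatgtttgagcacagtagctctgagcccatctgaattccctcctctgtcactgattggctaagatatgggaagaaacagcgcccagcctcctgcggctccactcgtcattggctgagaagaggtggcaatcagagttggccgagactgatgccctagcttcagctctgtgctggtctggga
The windows differ in composition. GC content was 62.3% with 14 CpG dinucleotides for Gucy1a3 and 52.3% with 6 for Gucy1b3, and each held GGGCGG once.

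Of 22 other genes of the cGMP pathway (nitric oxide synthases, further cyclases, cGMP-dependent kinases, phosphodiesterases and partners), 8 were expressed well enough to be tested. Of these 8 genes, 2 were higher in SP-Treg, 1 was higher in BM-Treg and 5 did not pass the test, with a median log2 fold change of 0.06. Over all genes, 8.75% passed the edgeR test in either direction, 5.02% higher in SP-Treg and 3.72% higher in BM-Treg. These shares stand beside the counts of every list below. Nos1, a synthase of nitric oxide, had 0.438, 1.99, 2.98 and 0.919 CPM in BM-Treg and 6.90, 3.43, 9.11 and 6.46 CPM in SP-Treg. The lowest SP-Treg library stood above the highest BM-Treg library. The log2 fold change of Nos1 was -1.99 (SE 0.48, edgeR adjusted p = 0.0249). This call was lost in 4 of 8 fits with a library removed, those without BM-Treg replicate 2 or 4 or SP-Treg replicate 1 or 3, with edgeR adjusted p up to 0.0706. Pde2a, a phosphodiesterase that breaks down cyclic nucleotides and is itself stimulated by cGMP, had 103, 88.7, 84.9 and 107 CPM in BM-Treg and 56.7, 56.4, 45.4 and 58.9 CPM in SP-Treg. Its log2 fold change was 0.82 (SE 0.12, edgeR adjusted p = 0.00106), and it stayed past the threshold without any single library (highest edgeR adjusted p = 0.0039). The calls for Nos1 and Pde2a thus ran in opposite directions, and only that for Pde2a held in every fit with a library removed. Hsp90ab1, a chaperone that binds soluble guanylate cyclase among many other clients, was also higher in SP-Treg, at 2501 ± 788 CPM against 1138.5 ± 269 (log2 fold change -1.14, SE 0.23, edgeR adjusted p = 0.0149). Its level is uncertain, since near-identical pseudogene copies could take part of its reads, and the call was lost without BM-Treg replicate 1 or 3, with edgeR adjusted p up to 0.054. The cGMP-dependent kinases Prkg1 and Prkg2 were at or near 0 and were not tested.

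Gjb2 (ENSMUSG00000046352, chromosome 14, 57098600 to 57104702, minus strand) had 1.48, 3.01, 4.77 and 3.34 CPM in BM-Treg and 41.3, 26.4, 24.99 and 29.7 CPM in SP-Treg. The lowest SP-Treg library was 5.24 times the highest BM-Treg library, the widest gap of the 10 rows. The mean was 3.15 ± 1.35 in BM-Treg and 30.6 ± 7.40 in SP-Treg, in CPM (SD, n = 4), a log2 fold change of -3.27 (SE 0.29), 9.65-fold higher in SP-Treg. It ranked 19 among the 13397 genes when ordered from the lowest log2 fold change. Its promoter is shown for its high GC content, with 27 CpG dinucleotides, a GC content of 70.0% and a GC box core (capitals) on either strand, at chr14:57104653-57104952, minus strand.
Gjb2: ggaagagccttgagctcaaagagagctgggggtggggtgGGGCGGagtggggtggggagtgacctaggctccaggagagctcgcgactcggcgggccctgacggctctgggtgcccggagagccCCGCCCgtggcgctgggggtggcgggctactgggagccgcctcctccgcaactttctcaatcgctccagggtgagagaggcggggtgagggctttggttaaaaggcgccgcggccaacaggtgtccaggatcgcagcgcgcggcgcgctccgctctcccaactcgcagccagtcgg
Of 20 other genes in the list of connexins, pannexins and a junction protein, only Panx1 and Gja1 could be tested, and neither passed the edgeR test. At an unadjusted p under 0.05 there were 0, and DESeq2 also called 0. Panx1, which forms large channels in the plasma membrane, had 22.7 ± 2.99 in BM-Treg and 22.6 ± 3.80 in SP-Treg, in CPM (log2 fold change 0.00, SE 0.15, edgeR adjusted p = 0.993). Gja1, the connexin most widely expressed in other tissues, did not exceed 1.99 CPM in any library. Gjb6, a connexin gene beside Gjb2 on the same strand, had 0 counts in all 4 BM-Treg libraries and 10, 9, 4 and 3 counts in SP-Treg replicates 1 to 4, too few to be tested.

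Tbc1d4 (ENSMUSG00000033083, chromosome 14, 101442360 to 101609191, minus strand) had 13.03, 13.8, 15.4 and 10.2 CPM in BM-Treg and 39.4, 39.8, 41.5 and 50.8 CPM in SP-Treg. The groups were wide apart and each was even, BM-Treg replicate 4 being the lowest and SP-Treg replicate 4 the highest. The mean was 13.1 ± 2.16 in BM-Treg and 42.9 ± 5.35 in SP-Treg, in CPM (SD, n = 4), a log2 fold change of -1.70 (SE 0.15), 3.26-fold higher in SP-Treg. The tables list 10 transcripts of Tbc1d4. Most of its expected counts were assigned to ENSMUST00000161304, a transcript with a retained intron that GENCODE M21 places at the 3′ end of the gene (101442368 to 101463223). Its share was 75.1 ± 5.70% in BM-Treg and 80.03 ± 6.92% in SP-Treg (exact permutation p = 0.286, two-sided). In BM-Treg 13.003 ± 2.27% and in SP-Treg 8.02 ± 1.40% of the counts went to ENSMUST00000159664, a transcript annotated as a target of nonsense-mediated decay. Its lowest BM-Treg share, 10.6%, exceeded its highest SP-Treg share, 9.42%, and the exact permutation p was 0.0286, the smallest that 4 against 4 allows, or 0.157 after adjustment over 11 transcripts. The counts assigned to Tbc1d4 thus lay mainly on transcripts of its 3′ part in both tissues, and shares of transcripts that overlap are estimates.

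Of 18 genes of glucose transporter traffic and insulin signalling, 14 were tested, 0 were higher in SP-Treg, 3 were higher in BM-Treg and 11 did not pass the edgeR test (median log2 fold change 0.08). Over all genes tested, 5.02% were called higher in SP-Treg and 3.72% higher in BM-Treg. Among so few genes, 0 called is near the share for SP-Treg, and nothing is read from it. Irs2, an adaptor of the insulin receptor, was 31.3 ± 5.98 in BM-Treg and 15.9 ± 3.71 in SP-Treg, in CPM (log2 fold change 0.97, SE 0.18, edgeR adjusted p = 0.00394). Slc2a3, a glucose transporter of the plasma membrane, was 219.9 ± 30.1 CPM against 139 ± 11.04 CPM (log2 fold change 0.66, SE 0.11, edgeR adjusted p = 0.00254). Rab8a, a GTPase that Tbc1d4 can switch off, was 127 ± 2.14 CPM against 89.3 ± 7.68 CPM (log2 fold change 0.51, SE 0.09, edgeR adjusted p = 0.00401). All 3 stayed past the threshold without any single library. The closest paralog, Tbc1d1, had a log2 fold change of -0.02 (edgeR adjusted p = 0.929).

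Hivep3 is listed as 2 rows, a long one that was higher in SP-Treg and a short one whose tissues overlapped. The long row (ENSMUSG00000028634, chromosome 4, 119733784 to 120138045, plus strand) had 106, 115, 112 and 92.6 CPM in BM-Treg and 231, 261, 273 and 218 CPM in SP-Treg, without overlap. The mean was 106 ± 9.91 in BM-Treg and 246 ± 25.6 in SP-Treg, in CPM (SD, n = 4), a log2 fold change of -1.21 (SE 0.11), 2.31-fold higher in SP-Treg. The short row (ENSMUSG00000078582, chromosome 4, 119733796 to 119736768, plus strand) had 3.39, 2.13, 2.85 and 3.51 CPM in BM-Treg and 1.58, 0.478, 2.59 and 3.08 CPM in SP-Treg. Its log2 fold change of 0.61 (SE 0.44) lay within the spread of the libraries and was 0.29 without SP-Treg replicate 2. It lies inside the long row at its 5′ end, and GENCODE M21 counts its transcript to the long gene, so that reads there could be split between the rows.

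Within the long row, 7.66 ± 1.49% of expected counts in BM-Treg and 3.25 ± 0.718% in SP-Treg (SD, n = 4) were assigned to ENSMUST00000141605, a processed transcript from the upstream start of the gene. By library the shares were 6.85, 7.06, 9.90 and 6.85% in BM-Treg and 2.94, 2.63, 3.16 and 4.28% in SP-Treg. The groups did not overlap (exact permutation p = 0.0286, two-sided, the smallest possible, or 0.157 after adjustment over 11 transcripts), and edgeR's test of transcript usage over all transcripts did not call it. The main coding transcript, ENSMUST00000106307, begins at 119814495 and held 82.6 ± 3.84% in BM-Treg and 80.6 ± 5.19% in SP-Treg (exact permutation p = 0.543). A shorter coding transcript from the 3′ part, ENSMUST00000166542 (120094489 to 120134557), held 8.60 ± 3.86% and 15.9 ± 5.14% (exact permutation p = 0.0857). On the FPKM scale, which weights by length, the upstream transcript of 1115 bases took 39.8 ± 6.70% of the gene in BM-Treg and 24.0 ± 3.57% in SP-Treg. The direction for the main coding transcript turned on that scale, to 38.1 ± 2.60% in BM-Treg and 53.3 ± 7.17% in SP-Treg. The fold change of the gene in FPKM was correspondingly smaller than in CPM, at -0.63 on the log2(FPKM + 0.1) scale.

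The counts of transcripts were also summed by their annotated start site. This grouping was made after the shares had been seen, and it was given no test. The sum from the second start holds most of the counts for which Hivep3 was chosen. Its difference between the tissues is therefore no separate result. The 4 transcripts that begin at the first start, the short row included, summed to 11.7, 11.3, 14.4 and 10.9 CPM in BM-Treg and 8.95, 7.35, 11.6 and 12.6 CPM in SP-Treg, which overlapped. The 3 transcripts that begin at the second start summed to 85.7, 91.2, 93.1 and 81.3 CPM in BM-Treg and 182, 205, 242 and 168 CPM in SP-Treg, which did not. Of the summed counts assigned to both starts, 12.1 ± 0.982% in BM-Treg and 4.93 ± 1.49% in SP-Treg were on transcripts from the first. The listed transcripts from the first start end by 119873337, whereas ENSMUST00000106307, from the second, runs to 120138045. Reads beyond 119873337 could not be assigned to the first start. The sums therefore do not measure how much each start was used. ENSMUST00000166542, which begins at 120094489, is in neither sum. It had 218, 308, 166 and 47.2 expected counts in BM-Treg and 586, 614, 267 and 546 in SP-Treg, before scaling to library size. The promoter at the second start, chr4:119814428-119814727, plus strand, is shown because ENSMUST00000106307, which held most counts of the gene, begins in that window. This promoter held no GC box core, so no letters are in capitals, and its GC content of 44.3% was the lowest among the members.
Hivep3: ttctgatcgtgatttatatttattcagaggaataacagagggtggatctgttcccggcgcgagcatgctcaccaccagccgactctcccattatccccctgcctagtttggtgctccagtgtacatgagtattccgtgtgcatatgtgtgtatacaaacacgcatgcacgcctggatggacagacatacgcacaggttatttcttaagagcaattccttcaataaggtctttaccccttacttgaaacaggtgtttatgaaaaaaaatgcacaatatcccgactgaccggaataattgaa

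**Figure D3:**
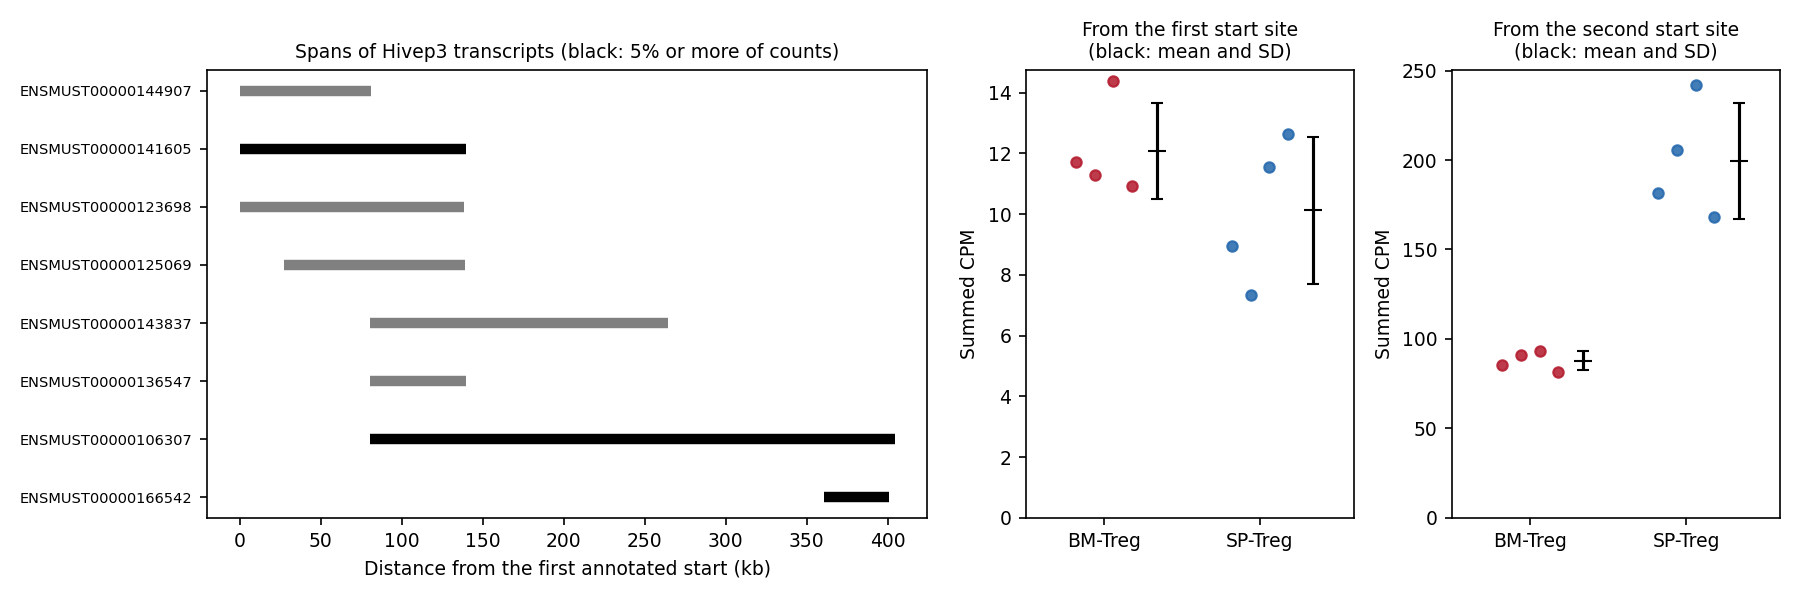
The left panel draws the span of each Hivep3 transcript with counts under ENSMUSG00000028634 by distance from the first annotated start (kb), black where it held 5% or more of the counts, and the right panels give the summed CPM of transcripts from each start in the 4 BM-Treg (red) and 4 SP-Treg (blue) libraries with mean and SD, the first start including the short row. Sums from the first start overlap (12.1 ± 1.57 and 10.1 ± 2.41 CPM), and those from the second do not (87.8 ± 5.38 and 199 ± 32.5 CPM). The sums hold counts assigned to annotated transcripts and do not measure use of the starts.

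Of 6 paralogs and partners of Hivep3, all tested, 1 was higher in SP-Treg, 0 were higher in BM-Treg and 5 did not pass the edgeR test (median log2 fold change 0.07). The paralog Hivep2 was 230.3 ± 7.20 in BM-Treg and 299 ± 17.2 in SP-Treg, in CPM (log2 fold change -0.38, SE 0.09, edgeR adjusted p = 0.0183), and this call was lost without BM-Treg replicate 2 or SP-Treg replicate 2, with edgeR adjusted p up to 0.0658. The paralog Hivep1 had a log2 fold change of 0.16 (edgeR adjusted p = 0.367).

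Trib2 (ENSMUSG00000020601, chromosome 12, 15791727 to 15816877, minus strand) had 116, 99.2, 105 and 113 CPM in BM-Treg and 199, 201, 246 and 273 CPM in SP-Treg. SP-Treg replicates 3 and 4 were the highest, and the tissues did not overlap. The mean was 108 ± 7.56 in BM-Treg and 229.7 ± 36.3 in SP-Treg, in CPM (SD, n = 4), a log2 fold change of -1.09 (SE 0.12), 2.12-fold higher in SP-Treg. A relative ran the other way. Trib1, another tribbles pseudokinase, was 381 ± 51.7 in BM-Treg and 229.8 ± 34.1 in SP-Treg, in CPM (log2 fold change 0.73, SE 0.13, edgeR adjusted p = 0.0029), and it stayed past the threshold without any single library. Of 10 genes in the list of tribbles and their partners, 9 were tested, 1 was higher in SP-Treg, 2 were higher in BM-Treg and 6 did not pass (median log2 fold change 0.15). Cebpa and Cebpb, transcription factors that tribbles proteins target for degradation, were low and split. Cebpa was 3.79 ± 0.712 in BM-Treg and 7.41 ± 1.32 in SP-Treg, in CPM (log2 fold change -0.97, SE 0.23, edgeR adjusted p = 0.0183), and Cebpb was 4.54 ± 0.858 CPM and 2.16 ± 0.775 CPM (log2 fold change 1.06, SE 0.31, edgeR adjusted p = 0.0444). The call for Cebpb held in only 1 of 8 fits with a library removed, the one without SP-Treg replicate 4 (edgeR adjusted p up to 0.135 in the others), and that for Cebpa was lost without BM-Treg replicate 2 or SP-Treg replicate 4 (up to 0.0683).

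Hdgfrp3 (ENSMUSG00000025104, chromosome 7, 81881251 to 81934473, minus strand) was the most even member. It had 12.5, 13.8, 13.5 and 12.03 CPM in BM-Treg and 40.1, 39.99, 36.5 and 43.0 CPM in SP-Treg. No library strayed far from its group, and the lowest SP-Treg library was 2.65 times the highest BM-Treg library. The mean was 12.96 ± 0.823 in BM-Treg and 39.9 ± 2.65 in SP-Treg, in CPM (SD, n = 4), a log2 fold change of -1.62 (SE 0.12), 3.07-fold higher in SP-Treg. Its main transcript, ENSMUST00000107305, held 77.9 ± 6.31% of its counts in BM-Treg and 78.9 ± 7.86% in SP-Treg (exact permutation p = 0.771). Tm6sf1 overlaps it on the other strand, and the library kit is not stated to keep strand, so that reads of the overlap cannot be told apart. Tm6sf1 was low and did not pass the test, at 3.19 ± 2.26 in BM-Treg and 5.03 ± 2.41 in SP-Treg, in CPM (log2 fold change -0.65, SE 0.53, edgeR adjusted p = 0.513). Of 3 tested relatives of 4 listed, Hdgfrp2 was higher in SP-Treg, at 34.1 ± 4.60 CPM against 25.04 ± 2.19 CPM (log2 fold change -0.45, SE 0.13, edgeR adjusted p = 0.0432). That call held only without SP-Treg replicate 3 among 8 fits with a library removed, with edgeR adjusted p up to 0.138 in the others. Hdgf and Psip1 did not pass.

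Tgm2 (ENSMUSG00000037820, chromosome 2, 158116402 to 158146436, minus strand) had the largest fold change of the members and the widest spread. It had 0.274, 0.278, 0.700 and 0.251 CPM in BM-Treg, which correspond to 5, 6, 16 and 3 counts, and 3.02, 4.70, 8.69 and 17.3 CPM in SP-Treg. The tissues did not overlap, but the SP-Treg libraries differed among themselves by 5.74-fold. The mean was 0.376 ± 0.217 in BM-Treg and 8.43 ± 6.38 in SP-Treg, in CPM (SD, n = 4), a log2 fold change of -4.40 (SE 0.61), or 21.1-fold, and it ranked 9 among the 13397 genes. Without SP-Treg replicate 4 the log2 fold change was -3.78 and without BM-Treg replicate 3 it was -4.92. A count of 3 was 0.131 to 0.251 CPM in these libraries, so that BM-Treg replicate 4 was at that floor. In SP-Treg replicates 1 to 4 the erythroid markers summed to 1.94, 187, 453 and 291 CPM. These sums were lowest in replicates 1 and 2, as Tgm2 was, but highest in replicate 3, whereas Tgm2 was highest in replicate 4. The part of other cells in the level of Tgm2 was not tested. Rprd1b overlaps Tgm2 on the other strand and did not pass the test (34.6 ± 4.98 CPM in BM-Treg, 33.6 ± 3.06 CPM in SP-Treg, log2 fold change 0.04, SE 0.13, edgeR adjusted p = 0.877). Gm20412, which also overlaps it, had 0 counts in all 8 libraries.

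Of 15 genes in the list of transglutaminases, their partners and the retinoic acid receptors, 7 were tested, 0 were higher in SP-Treg, 3 were higher in BM-Treg and 4 did not pass the edgeR test (median log2 fold change 0.43). No other transglutaminase enzyme of the Tgm family was expressed well enough to be tested. Tgm2 is a known target gene of the retinoic acid receptors in other cells, and 2 of these receptors were higher in BM-Treg. Rara was 128 ± 6.66 in BM-Treg and 84.5 ± 13.9 in SP-Treg, in CPM (log2 fold change 0.60, SE 0.12, edgeR adjusted p = 0.00546) and stayed past the threshold without any single library. Rarg was 59.1 ± 7.25 CPM against 34.8 ± 11.02 CPM (log2 fold change 0.76, SE 0.19, edgeR adjusted p = 0.0257), and its call was lost without BM-Treg replicate 1, 2 or 3 or SP-Treg replicate 3 (edgeR adjusted p up to 0.0758). Sdc4, a cell surface proteoglycan that binds transglutaminase 2, was 162 ± 33.6 CPM against 88.3 ± 23.5 CPM (log2 fold change 0.87, SE 0.19, edgeR adjusted p = 0.0172), and its call was lost without SP-Treg replicate 1 or 3 (up to 0.0547).

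Sspo (ENSMUSG00000029797, chromosome 6, 48448229 to 48501250, plus strand) had 0.712, 0.834, 1.05 and 0.418 CPM in BM-Treg, from 13, 18, 24 and 5 counts, and 5.82, 7.65, 5.35 and 5.65 CPM in SP-Treg, from 81, 96, 64 and 77 counts. The lowest SP-Treg library was 5.09 times the highest BM-Treg library. The mean was 0.753 ± 0.264 in BM-Treg and 6.12 ± 1.04 in SP-Treg, in CPM (SD, n = 4), a log2 fold change of -2.97 (SE 0.32), 7.82-fold higher in SP-Treg. Spread over a very long transcript, these reads amounted to 0.390 ± 0.0632 FPKM in SP-Treg, the lowest level per length of the members. All counts in BM-Treg were assigned to ENSMUST00000043676, whose share in SP-Treg was 56.3, 62.1, 100 and 0%, the rest going to ENSMUST00000169350 (exact permutation p = 0.143). With so few counts the assignment changed from library to library. The promoter of Sspo, chr6:48447924-48448223, plus strand, is shown as the contrast to that of Gjb2: it had 1 CpG dinucleotide and no GC box core, hence no capitals.
Sspo: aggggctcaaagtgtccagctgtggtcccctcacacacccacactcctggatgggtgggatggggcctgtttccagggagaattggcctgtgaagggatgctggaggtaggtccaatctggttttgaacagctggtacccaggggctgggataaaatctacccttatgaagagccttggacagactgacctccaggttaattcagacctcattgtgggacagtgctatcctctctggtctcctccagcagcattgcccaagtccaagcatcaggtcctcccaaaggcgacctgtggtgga

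None of its neighbours passed the test. Zfp467, which lies 2404 bases away on the other strand, had a log2 fold change of 0.08 (SE 0.19, edgeR adjusted p = 0.846), and the pseudogene Gm10243, 22206 bases away on the other side, 0.07 (SE 0.34, edgeR adjusted p = 0.931). Commd6, 24575 bases from Tbc1d4, had 0.19 (SE 0.13, edgeR adjusted p = 0.428). No tested neighbour that was not itself a member passed the test. Of 13 genes with thrombospondin repeats or otherwise related to SCO-spondin, 6 were tested, 1 was higher in SP-Treg, 0 were higher in BM-Treg and 5 did not pass (median log2 fold change -0.28). The one called was Adamtsl4, a secreted protein of elastic fibres, at 15.6 ± 3.36 CPM in SP-Treg and 9.90 ± 1.24 CPM in BM-Treg (log2 fold change -0.66, SE 0.18, edgeR adjusted p = 0.0347). That call was lost without BM-Treg replicate 1, 2 or 3 or SP-Treg replicate 1 or 2 (edgeR adjusted p up to 0.117).

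Over the 8 lists of related genes, 55 of 108 genes were tested, 6 were higher in SP-Treg, 9 were higher in BM-Treg and 40 did not pass, a share called of 27.3% against 8.75% of all genes (5.02% higher in SP-Treg, 3.72% in BM-Treg). The lists were written with earlier results of these data known, so nothing is read from that share. The median log2 fold change was 0.03 over the related genes and -1.70 over the 9 main member rows. In 6 of the 15 called genes (Irs2, Pde2a, Rab8a, Rara, Slc2a3 and Trib1) the call held in every fit that left out a library, and all 6 were higher in BM-Treg. With batch as a term, Pde2a and Irs2 kept their calls (edgeR adjusted p = 0.0165 and 0.0179) and the other 13 lost them, a fit in which the comparison of tissues rests on BM-Treg replicate 4.

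**Figure D4:**
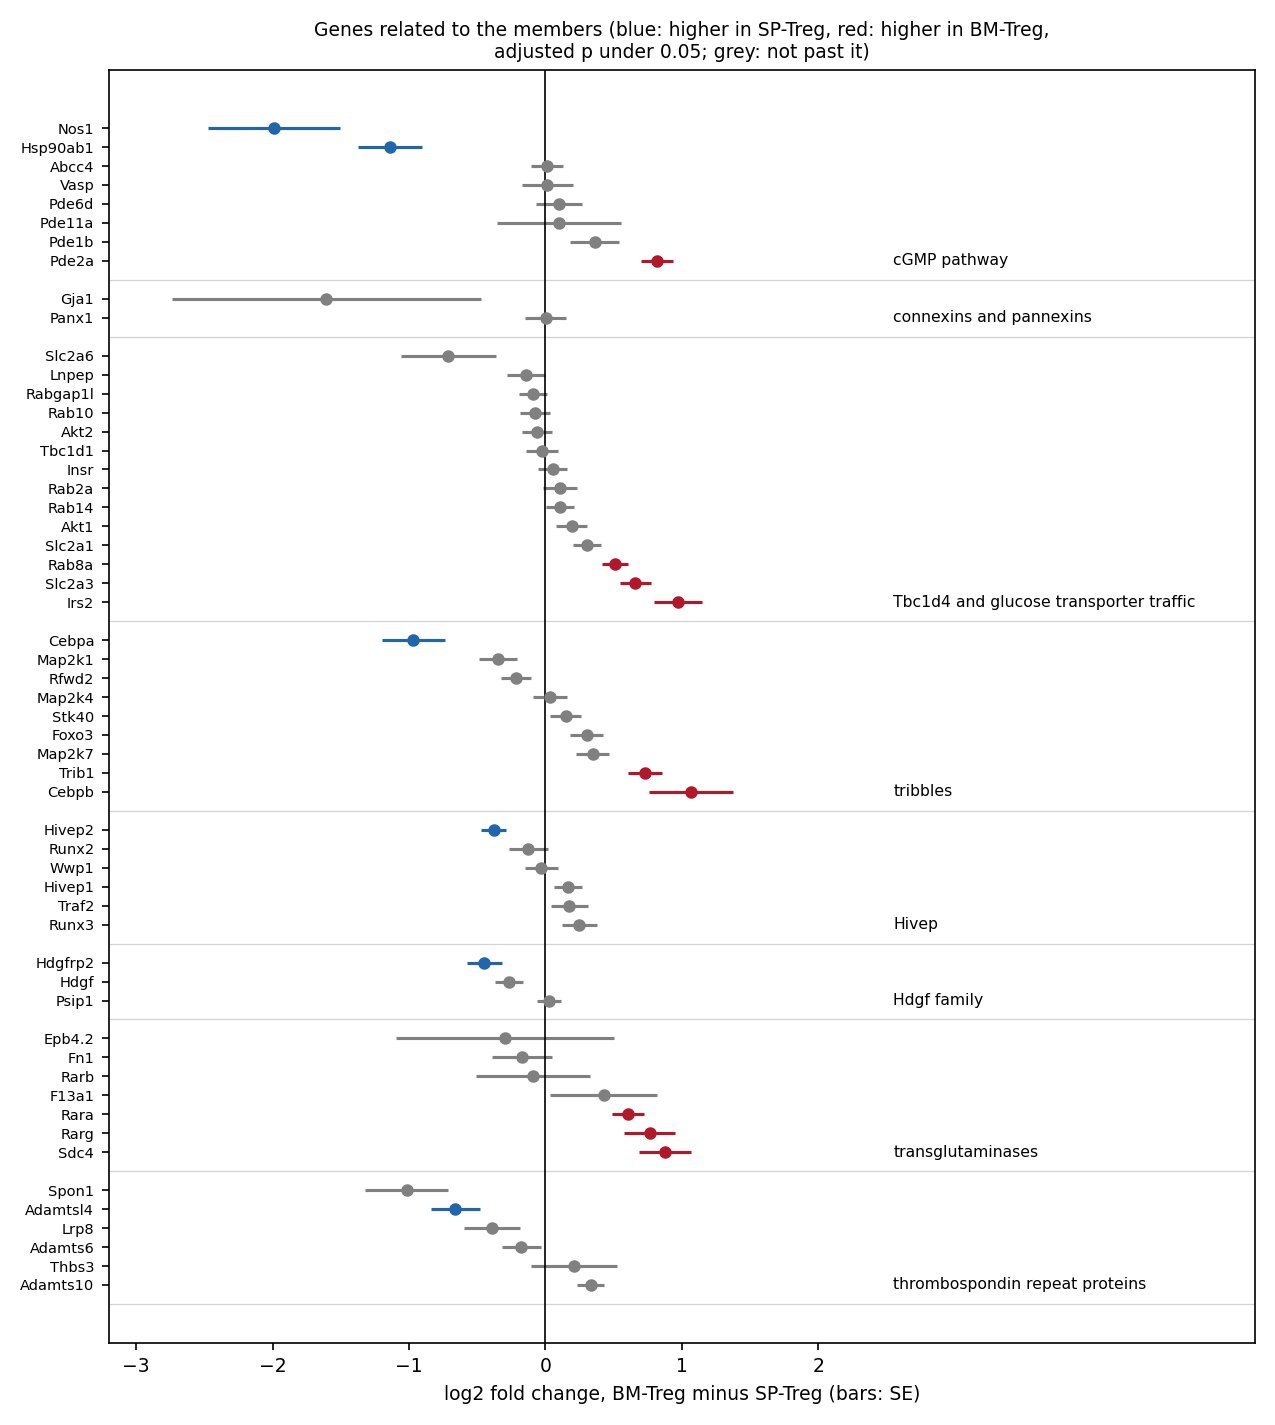
Each point is the log2 fold change (BM-Treg minus SP-Treg, bars SE) of a tested gene related to the members, grouped by list, blue where higher in SP-Treg and red where higher in BM-Treg at an edgeR adjusted p under 0.05, and grey otherwise. The 55 points lie around 0 in most lists, with 6 in blue and 9 in red.

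Transcript usage was tested for the members with at least 2 expressed transcripts. Of 10 transcripts of Hdgfrp3, Tbc1d4 and Hivep3 that could be tested by edgeR's diffSpliceDGE, 0 were called, against 0.18% of 21671 transcripts in all. An unadjusted p under 0.05 was reached by 1 of the 10 transcripts in that test, by 2 with limma-voom and by 2 with limma-trend on log ratios, and neither limma test called any. Over all transcripts such a p was reached by 2.12% with diffSpliceDGE and by 7.55% on log ratios, and 0.0554% were called on log ratios. For limma-voom that share was not taken, so nothing is read from its count. Gjb2, Gucy1a3 and Gucy1b3 each have 1 transcript in the tables. A difference in transcript usage between the tissues was thus not detectable by these tests at this depth for the 10 transcripts. In simulated data diffSpliceDGE recovered 12% of transcripts changed by a log2 fold change of 2 and 58% at 4. The test on log ratios recovered 26% and 76%. The 0 calls therefore do not show that usage was the same.

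**Figure D5:**
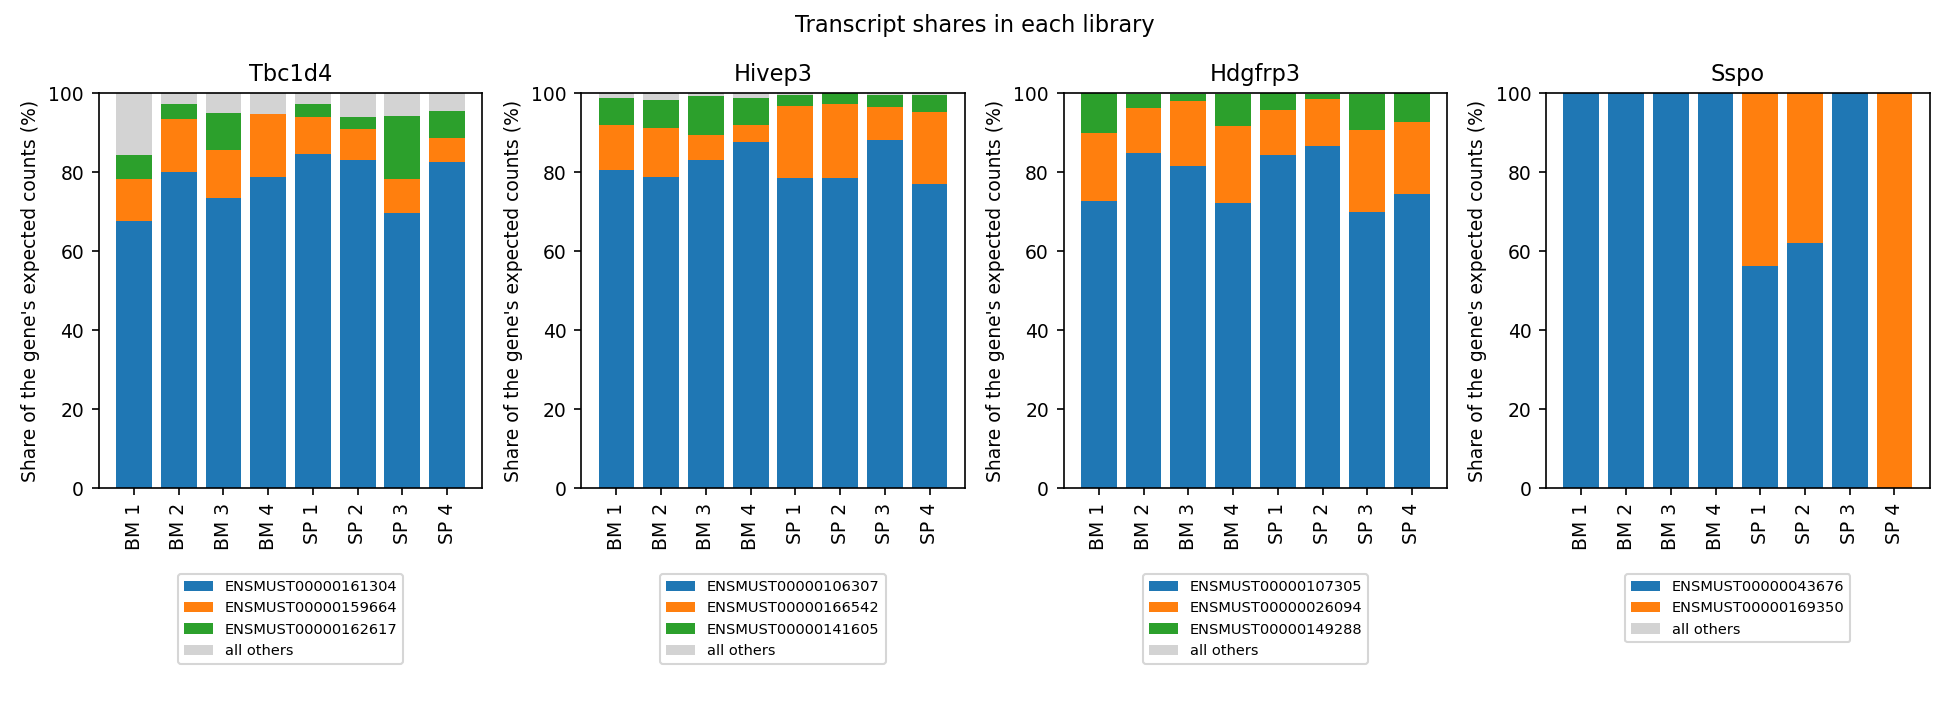
Stacked bars give the share of the expected counts of Tbc1d4, Hivep3, Hdgfrp3 and Sspo (percent) assigned to each transcript in the 4 BM-Treg and 4 SP-Treg libraries, with transcripts under 5% over all libraries in grey. The same transcript leads in every library for Tbc1d4, Hivep3 and Hdgfrp3, while Sspo goes from 100% to 0% for ENSMUST00000043676 among the SP-Treg libraries.

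RefSeq gave 9 promoter windows for 8 of the 9 members, 2 of them for Gucy1a3. Their median GC content was 62.3%, against 52.7% over 32851 windows of the mouse genome, and their median number of CpG dinucleotides was 14 against 7. They ranged from Sspo with 1 CpG to Trib2 with 40 and a GC content of 71.0%. GGGCGG, read on both strands, was found in 6 of the 9 windows (Gjb2, Gucy1a3, Gucy1b3, Hdgfrp3, Tbc1d4 and Trib2) and in 35.7% of all windows. CACGTG (7.15% of all windows), TGTTTAC (3.65%), TGACTCA and TGAGTCA (5.2% each) were in none of the 9, also on both strands. TATAAA was found in 1 window, that of Hivep3, and in 13.6% of all windows. TGTGGT was found in 2 windows (16.8% of all) and GGGAAA in 2 (25.2% of all). TGACTCA and TGAGTCA are reverse complements of each other, so on both strands they count the same sites. These matches describe letters in a window and say nothing of binding.

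Among the 11512 genes whose log2 CPM averaged 1 or more, those whose log2 CPM over the 8 libraries most resembled the mean z score of the 10 member rows were Eif5b, a translation initiation factor (Pearson r = 0.992), Abce1, a ribosome recycling factor (r = 0.992), and Angptl2, a secreted angiopoietin-like protein (r = 0.987). Angptl2 went from 17.4 ± 2.96 CPM in BM-Treg to 40.8 ± 3.18 CPM in SP-Treg (log2 fold change -1.23), and Abce1 from 40.03 ± 2.01 to 65.7 ± 4.71 CPM (-0.71). After the mean of each tissue had been taken off, the gene most like a member was Gm9845 for Gjb2 (r = 0.983), Arf1 for Gucy1a3 (0.987), Got1 for Gucy1b3 (0.986), AC092202.2 for Hdgfrp3 (0.968), Lrrc47 for Tbc1d4 (0.982), Gm12009 for the short Hivep3 row (0.974), Map3k8 for Trib2 (0.982), Tm4sf5 for Sspo (0.986) and Commd3 for Tgm2 (0.987). These are the highest of 11512 values over 8 libraries that differ in depth and batch, and they are given as a description without a p.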

How the data were processed

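RNA of more than 100000 sorted cells per library (15 ng, RIN above 7) was amplified by SPIA (NuGEN Ovation) and sequenced from a single end (80 nt). The submitters' processing notes name cutadapt 1.9, STAR 2.5.2a, RSEM 1.2.30 and GRCm38, and the annotation is not given in the sources used here. The authors deposited expected counts per gene and per transcript, which are estimates and were not normalised between libraries. The authors also deposited FPKM, in which counts are divided by transcript length and depth.

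Expected counts were rounded, filtered with edgeR's default on the groups (13397 of 38215 genes), scaled by TMM and tested with the quasi-likelihood test of edgeR 4.0.16 in R 4.3.3 without covariates, since the study names no test for its RNAseq, with Benjamini-Hochberg adjustment at 0.05. log2 CPM used a prior count of 2. P-values measure the spread between 4 libraries per tissue. Since the cDNA carried no molecular identifiers, floors in counts cover counting error only. Transcript usage was tested with diffSpliceDGE over 21671 transcripts of 6035 genes, and shares of transcripts holding at least 5% of a gene's counts were compared by exact two-sided permutation tests. The tests were tried on simulated data, where diffSpliceDGE made 41 false calls. A limma-trend test (limma 3.58.1) on log ratios, which made 10 there, was therefore added after the data had been seen. Alternatives included DESeq2 1.42.0, FPKM with limma-trend, batch as a term and each library left out. The members and the gene lists were chosen with earlier results of these data known. Of the related genes, those passing the test were named, and in a list without any, its measured gene with the highest CPM. Tbc1d1, Hivep1, Gja1, Gjb6, Hdgf, Psip1, Prkg1 and Prkg2 were added after their values had been seen. Genes overlapping a member, the nearest tested gene within 50 kb on each side, and the genes most like the members in pattern were also named, except for 1 that is not reported here. All 187 symbols of the related and marker lists matched a gene in the tables. Promoter windows come from RefSeq (GRCm38.p6), transcript positions from GENCODE M21 and gene positions from the deposited tables. Protein sequences were not used here.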

Additional observations from a re-analysis of the deposited data

Results flagged for a closer look

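In 5 of 42 groups of 4 libraries tested with Dixon's criterion, a library stood far from the other 3, where chance alone flags about 1 group in 20. Tgm2 was at 0.700 CPM in BM-Treg replicate 3, above the 0.251 to 0.278 CPM of the other BM-Treg libraries. The share of Tbc1d4 counts on ENSMUST00000161304 was 69.7% in SP-Treg replicate 3, below the other SP-Treg libraries (82.7 to 84.7%). For Hivep3, the share of ENSMUST00000106307 was 88.3% in SP-Treg replicate 3, against 77.0 to 78.6% in the other SP-Treg libraries. In the same library the share of ENSMUST00000166542 was 8.16%, against 18.2 to 18.7%, so that these shares of Hivep3 move against each other. The share of ENSMUST00000141605 was 9.90% in BM-Treg replicate 3, above 6.85 to 7.06% in the other BM-Treg libraries. SP-Treg replicate 3 thus accounts for 3 of the 5, and it also had the most erythroid marker RNA (453 CPM), whose part in these shares was not tested.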

How the results depend on the processing

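The main limits are the overlap of tissue with batch and sex, the low counts of Sspo, Tgm2 and Gucy1b3, and transcript shares that are estimates. The genes called numbered 1172 (673 higher in SP-Treg, 499 in BM-Treg), 258 with batch as a term (147 and 111), 765 on log2(FPKM + 1) (283 higher in SP-Treg) and 728 on log2(FPKM + 0.1) (274). DESeq2 called 1703 (922 and 781). Leaving out a library gave 690 to 1048 genes (393 to 639 higher in SP-Treg, 297 to 425 in BM-Treg), the fewest without BM-Treg replicate 2. Related genes called numbered 15, but 3 with batch as a term, 9 on either FPKM scale and 8 to 14 when a library was left out. The members' median log2 fold change of -1.66 was -1.11 on log2(FPKM + 1), where a pseudocount shrinks low genes, and -1.89 to -1.60 when a library was left out. Every main row kept its sign under each alternative in which it had a value. The rule chose the members for this difference in these same libraries, so nothing is read from the kept signs. With at least 10 counts in every library only 7 rows had one, and Sspo, Tgm2 and the short Hivep3 row dropped out.

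Transcripts called numbered 39, 12 with log ratios, 78 with limma-voom, 20 with at least 10 counts in every library, 117 with batch as a term and 53 to 115 when a library was left out. Member transcripts called stayed at 0 except for 1 (ENSMUST00000123698 of Hivep3) without SP-Treg replicate 3. Same-numbered libraries did not deviate together (r between -0.176 and 0.0595), so numbers pair nothing. A replicate block gave 25 transcripts called, 948 genes and 12 related genes. The share of ENSMUST00000106307 differed by 1.97 percentage points (BM-Treg minus SP-Treg), but by -15.1 from FPKM, which weights by length. Differences near 0 changed sign. Zfp467 was at -0.33 and Rprd1b at -0.18 with batch as a term (-0.31 and -0.16 in batch 3 alone). With a library left out, Panx1 ranged from -0.082 to 0.12, Zfp467 from -0.031 to 0.27, Gm10243 from -0.17 to 0.41 and Rprd1b from -0.049 to 0.11. The cause of the other changes was not tested.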
